A study of Homo sapiens with 6 samples.

Results

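Chromatin accessibility was examined at 10 genes of the erythroid and myeloid lineages in a human B cell line. They were the erythroid and progenitor regulators TAL1, KLF1 and GATA2, the globin genes HBB, HBG1 and HBA1, the myeloid regulators CEBPA and CEBPE, the granule enzyme gene MPO and the monocyte receptor gene CD14. These 10 were taken from 19820 protein-coding genes because of their known lineage, and not for a measured value. Earlier results of these data were known when they were chosen. Peaks of the 6 lists were merged into regions where they overlapped, and for each gene the regions that overlapped by at least 1 bp the hg19 gene body with 5 kb on each side were collected, with all of their peaks. Together the 10 windows covered 157.731 kb and held 7 of the 56447 merged regions. These comprised 29 peaks, of which 27 overlapped a window themselves and 2 were in a region that crosses the edge of the HBB window.

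The libraries were bulk ATAC-seq, in which a transposase cuts and tags open DNA, of GM12878, an Epstein-Barr virus-transformed lymphoblastoid line. All cells were fixed with formaldehyde, permeabilized with Igepal and transposed, and none was stained with an antibody. The 3 groups of 2 replicates differed in how crosslinks were reversed: the old buffer with SDS followed by DNA purification, the new buffer without SDS followed by purification, and the new buffer with PCR directly and no purification, as in the Pi-ATAC workflow. The labels name the buffer of each sample, and purification after the first 2 is taken from the study's text. Whether replicates were separate cultures is not stated, and all libraries come from 1 cell line, so the spread between them may be technical.

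Blood lineages share early progenitors, and each lineage then opens its own regulatory DNA while that of the other lineages is kept closed or is silenced. In red cell precursors GATA factors, TAL1 and KLF1 act at the globin genes, and the beta globin genes also depend on a distant locus control region. In myeloid precursors C/EBP factors and PU.1 drive genes of granules and of microbial sensing. B cells instead use EBF1 and PAX5. Promoters rich in CpG dinucleotides are open in many cell types whether or not the gene is strongly transcribed, while CpG-poor promoters are more often open in 1 lineage.

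The lists held 30136 to 38023 peaks. The median peak had 20 to 22 reads at its summit, and the weakest peak had 8 or 9, so a site with fewer reads would not be listed. A gene with no region is therefore one with no accessibility detectable at this depth. In bulk libraries, a site open to a low degree in all cells and one fully open in a few cells cannot be told apart. Peak strength is given as the −log10 q of the summit, and rank as the percent of the library's peaks that were at least as strong, so that a rank near 100% marks the weakest peaks of a list.

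Of the members, only CEBPA and CD14 had a promoter region (within 1 kb of the start of a coding transcript). These promoter regions are shown first, by the sequence at their strongest summit. They are followed by the regions near CEBPE and CEBPA that lay within 1 kb of no coding transcript's start, and by the region at the edge of the HBB window. Sequences are the plus strand of the GRCh37 reference, the same build as hg19, 5′ to 3′, and capitals mark a match to the C/EBP motif TTGCNNAA or the RUNX motif TGTGGT on either strand.
CEBPA promoter, chr19:33793441-33793630: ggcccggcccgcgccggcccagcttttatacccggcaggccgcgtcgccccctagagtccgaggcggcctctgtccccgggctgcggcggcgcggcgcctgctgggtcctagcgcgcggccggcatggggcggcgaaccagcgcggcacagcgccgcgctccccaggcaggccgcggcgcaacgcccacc
CD14 gene body, chr5:140012300-140012500: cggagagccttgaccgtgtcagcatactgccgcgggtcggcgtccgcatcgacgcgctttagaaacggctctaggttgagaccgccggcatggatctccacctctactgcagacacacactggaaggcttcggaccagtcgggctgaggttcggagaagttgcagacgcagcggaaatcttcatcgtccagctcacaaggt
CEBPE upstream, chr14:23590121-23590321: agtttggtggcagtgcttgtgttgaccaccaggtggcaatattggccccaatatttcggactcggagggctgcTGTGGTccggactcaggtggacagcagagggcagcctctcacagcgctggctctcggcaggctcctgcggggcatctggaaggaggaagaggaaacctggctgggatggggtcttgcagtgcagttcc
CEBPA downstream, chr19:33787139-33787339: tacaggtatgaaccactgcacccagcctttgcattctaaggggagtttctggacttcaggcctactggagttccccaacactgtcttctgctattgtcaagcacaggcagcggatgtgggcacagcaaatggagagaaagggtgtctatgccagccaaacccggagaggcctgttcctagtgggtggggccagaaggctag
HBB window edge, chr11:5255793-5255993: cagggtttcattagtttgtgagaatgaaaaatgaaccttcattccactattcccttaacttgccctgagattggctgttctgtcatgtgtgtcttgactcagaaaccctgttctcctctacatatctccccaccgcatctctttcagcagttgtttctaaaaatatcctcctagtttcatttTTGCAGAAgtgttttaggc

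Of the 10 genes, 5 had a region in their window and 5 had none in any library. The genes with none were TAL1, GATA2, HBG1, HBA1 and MPO. The 50% with a region compare with 75.3% of all protein-coding genes. A promoter region was present in at least 1 library at 2 of the 10 genes (20%, against 60.6% of coding genes) and in all 6 libraries at 1 (10%, against 45.5%). A distal region, one elsewhere in the window, was present at 4 (40%, against 48.9%). The member windows were short, with a median of 13.0 kb against 37.0 kb for all coding genes. Among the 6990 coding genes with windows of 10.8 to 25.9 kb, the range of the members, 58.4% had a region, 45.3% a promoter region, 31.3% a promoter region in all 6 libraries and 29.6% a distal region. The members were thus below the background at promoters by either measure, while their share with a distal region lay below that of all coding genes and above that of genes with windows of their length. These shares are descriptions of 10 genes and were not tested.

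**Figure D1:**
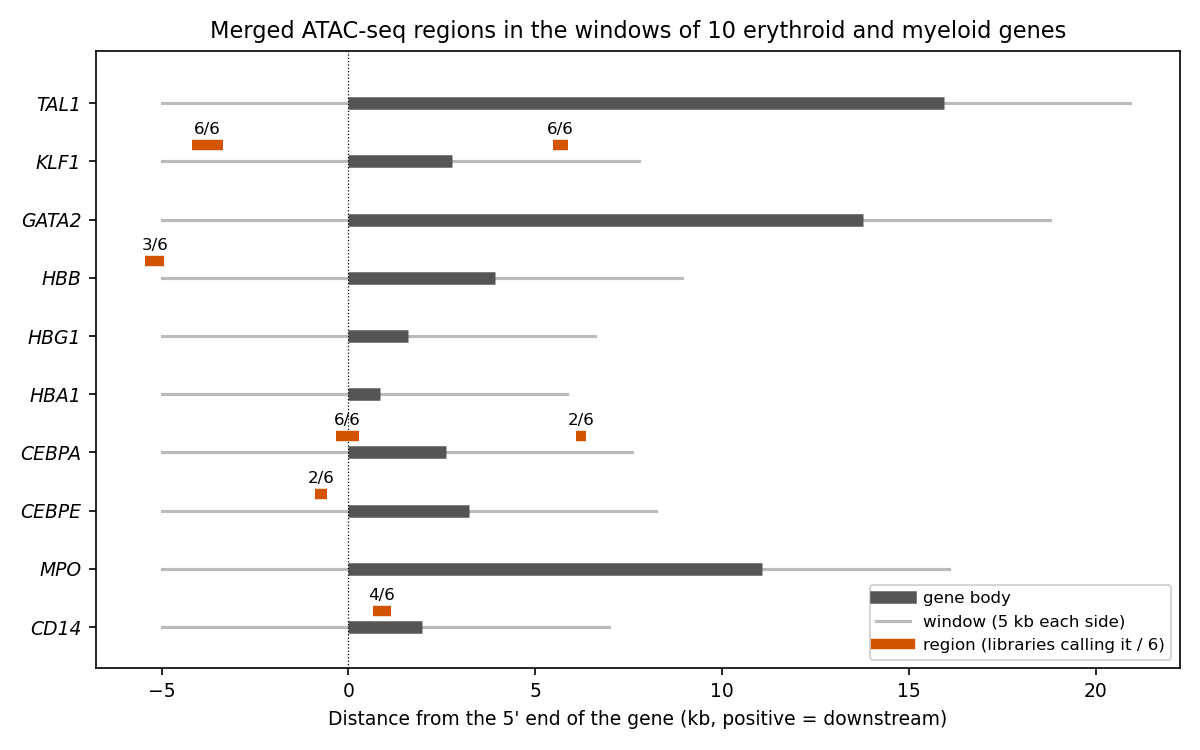
Map of the 10 gene windows by distance from the 5′ end of each gene in kb, positive downstream. Dark bars are gene bodies, thin lines the windows, and orange bars the merged regions, each with the number of the 6 libraries that called it. TAL1, GATA2, HBG1, HBA1 and MPO have no region, and the CEBPA region spans the gene start.

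The erythroid members had no promoter region in any library (0 of 6 genes). TAL1, a basic helix-loop-helix factor of blood stem and erythroid cells (chr1:47681962-47697897), had 3 annotated coding starts and no region in its 25936 bp window. The nearest region, at chr1:47644745-47645328, lay 50115 bp from the nearest TAL1 start, at the promoters of the non-coding genes CYP4A22-AS1 and LINC00853. It was called in all 6 libraries, with 17 to 40 summit reads. GATA2, a zinc finger factor of progenitors and mast cells (chr3:128198270-128212044), had 9 coding starts and likewise no region. Its nearest region (chr3:128166337-128166832) was 33955 bp away and called in 2 libraries, and the nearest one called in all 6 (chr3:128336269-128337017) was 124225 bp away.

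KLF1, a zinc finger activator of adult beta globin (chr19:12995236-12998015), had no promoter region. Its window held 2 regions called in all 6 libraries, and both lay at promoters of neighbouring genes. The stronger (chr19:13001385-13002197), 3370 bp upstream of the KLF1 start, was at the promoter of GCDH, the mitochondrial glutaryl-CoA dehydrogenase. Its summit reads were 20 and 16 in the old buffer libraries, 37 and 22 in the purified new buffer libraries, and 31 and 21 in the unpurified ones. Its −log10 q was 9.88 and 7.79, then 24.7 and 11.97, then 16.6 and 9.04, which placed it between rank 13.5% and 59.0% of its library. The purified new buffer libraries were above both old buffer libraries in reads and in −log10 q, and the unpurified libraries overlapped the purified ones. This region contained the strongest of the 29 peaks.

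The other region of the KLF1 window (chr19:12992146-12992530) was downstream of KLF1, 5485 bp from its start, at the promoter of DNASE2, a lysosomal nuclease that degrades DNA of nuclei expelled by erythroblasts. Summit reads were 19 and 17 (old buffer), 13 and 16 (new buffer, purified) and 16 and 25 (not purified), with −log10 q of 8.36 and 7.19, 6.03 and 8.25, and 5.99 and 13.5. The unpurified replicates were farthest apart and in −log10 q spanned the values of both other protocols, while in reads purified new buffer replicate 1 lay below them. Its rank ranged from 33.4% to 77.5%.

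The globin genes encode the oxygen-carrying chains of hemoglobin, HBB the adult beta chain, HBG1 a fetal gamma chain and HBA1 an alpha chain. HBB (chr11:5246694-5250625) had 4 annotated coding starts and a single region in its window, at its edge. Of the 516 bp of that region (chr11:5255556-5256071), 70 bp lay in the window, and its summits lay outside it. The region was at the start of the delta globin gene HBD, 4931 bp from the nearest HBB start. The peak of unpurified replicate 1 reached into the window, while those of old buffer replicate 1 and purified new buffer replicate 1 began past its end, so that by single peaks 1 library had a peak in the HBB window. The region was called in no replicate 2, and its peaks had 12 (old buffer), 12 (new, purified) and 18 reads (not purified). The −log10 q was 4.28, 4.68 and 9.48, at ranks of 94.1%, 88.5% and 51.6%. The old buffer and purified new buffer peaks were thus among the weaker ones of their lists.

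HBG1 (chr11:5269499-5271087) and HBA1 (chr16:226679-227521) had no region. The region nearest to HBG1 (chr11:5264175-5264479) lay 6587 bp from a start and was called in 2 libraries. It was just outside the window, which begins at chr11:5264499, and lay at starts of HBD and the pseudogene HBBP1. For HBB and HBG1 the nearest region called in all 6 libraries was the same, at chr11:5301770-5302233, 51145 bp from HBB and 30683 bp from HBG1. It lay in the annotated bodies of HBE1 and HBG2, which include long readthrough transcripts, in the part of the cluster beyond the embryonic gene HBE1 where the locus control region is known to lie. It had 17 to 25 summit reads, −log10 q of 6.27 to 11.7 and ranks of 40.5% to 73.0%. The region nearest to HBA1 (chr16:188502-189026) was 37653 bp away, at the promoter of NPRL3, and was called in all 6 libraries with 16 to 24 reads.

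The HBG1 and HBA1 windows also hold duplicated sequence, because HBG1 and HBG2, and HBA1 and HBA2, are near-identical copies. The study states reads of 75 bases for the unpurified workflow, and no read length for the SDS buffer. Of 75-base reference words within 1 kb of the 5′ end, 60.7% at HBA1 and 35.4% at HBG1 occurred more than once in the genome. Over the whole windows the shares were 26.0% and 15.3%, against at most 1.52% for the other 8 genes. Read pairs that map equally well to both copies fall under the mapping quality filter of the authors, so closed chromatin and lost reads cannot be told apart in those stretches.

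The myeloid members held both promoter regions, at 2 of 4 genes. CEBPA, a leucine zipper factor needed for granulocyte formation (chr19:33790840-33793440), was the only member with a promoter region in all 6 libraries. The 622 bp region (chr19:33793154-33793775) spanned the start of CEBPA and that of the divergent non-coding gene CEBPA-DT. It had 12 and 15 summit reads in the old buffer libraries, 14 and 15 in the purified new buffer libraries, and 17 and 16 in the unpurified ones. The −log10 q was 4.06 and 8.20, then 7.01 and 6.70, then 7.68 and 7.60. In −log10 q, though not in summit reads, the spread between the old buffer replicates exceeded that between the other libraries. The counts of the old buffer and the purified new buffer overlapped.

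The CEBPA promoter was weak in every library, at ranks of 55.5% to 95.5%. Its mean −log10 q of 6.87 compares with a median of 19.1 over the 9024 coding genes with a promoter region in all 6 libraries, of which 103 (1.14%) were weaker. Among all 20064 regions called in all 6 libraries, 2.81% were weaker. Its summit also moved between libraries more than at most regions. The 6 summits lay from −193 to 216 bp relative to the 5′ end, negative being upstream, a range of 409 bp, where the median range was 152 bp and 92.5% of regions had a smaller one. At the GCDH and DNASE2 promoters the summit range was 77 and 173 bp.

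CD14, the co-receptor for bacterial lipopolysaccharide on monocytes (chr5:140011313-140013285), had a region (chr5:140012135-140012639) in 4 libraries. It was not called in replicate 1 of the old buffer or of the purified new buffer. Summit reads were 17 in old buffer replicate 2, 13 in purified new buffer replicate 2, and 14 and 11 without purification. The −log10 q fell in the range of 3.38 to 8.57, and ranks were 53.1%, 78.2%, 88.4% and 98.8% in that order, so that 1 peak was among the very weakest of its list. The nearest coding start, that of a short annotated transcript, was 121 bp away. All 4 summits lay inside a CD14 exon, 739 to 1057 bp downstream of the 5′ end of the gene. The nearest region called in all 6 libraries (chr5:140018642-140019497) was at the TMCO6 promoter, 5357 bp from CD14, with 33 to 43 reads.

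CEBPE, a C/EBP factor of late granulocyte maturation (chr14:23586245-23589465), had a region (chr14:23590027-23590358) in 2 libraries, purified new buffer replicate 1 and unpurified replicate 1. The peaks had 14 and 12 reads, −log10 q of 5.08 and 4.81, and ranks of 85.5% and 88.8%. Relative to the 5′ end of the gene its summits were at −756 and −626 bp, that is upstream, but 1563 bp separated it from the coding transcript's start, so by the definition used it was distal. It did lie within 1 kb of the start of a CEBPE transcript with no defined coding sequence, and with such starts counted CEBPE would be a further member with a promoter region. CEBPA also had a distal region (chr19:33787068-33787351), 284 bp of intergenic sequence 6089 bp from the start on the downstream side. It was called in purified new buffer replicate 1 (13 reads, −log10 q of 6.22, rank 74.1%) and in unpurified replicate 2 (16 reads, 7.98, 58.6%). Neither was called in both replicates of any protocol.

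MPO, the myeloperoxidase of neutrophil granules (chr17:56347216-56358296), had no region in a window of 21081 bp. The nearest (chr17:56394886-56395174), 36590 bp away, was called in 1 library. The nearest one in all 6 libraries (chr17:56409639-56410173) was 51343 bp away, at the promoter of MIR142HG, the host of a microRNA of blood cells, with 28 to 44 reads.

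Of the 7 regions, 3 were called in all 6 libraries and 4 in fewer. Over all merged regions 35.5% were called in all 6. Of the 5 distal regions, 3 lay at the promoter of another coding gene (DNASE2, GCDH and HBD), and 2 at no start of a coding transcript. Each library had 4 to 6 of the 29 peaks, and 24 of them were in the weaker 50% of their library (22 of the 27 that overlapped a window themselves). None was in the strongest 10%. The 5 peaks in the stronger 50% were all at the DNASE2 and GCDH promoters. Thus no peak in a promoter region of a member, and none in the intergenic sequence near CEBPE or CEBPA, was above the median of its list.

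**Figure D2:**
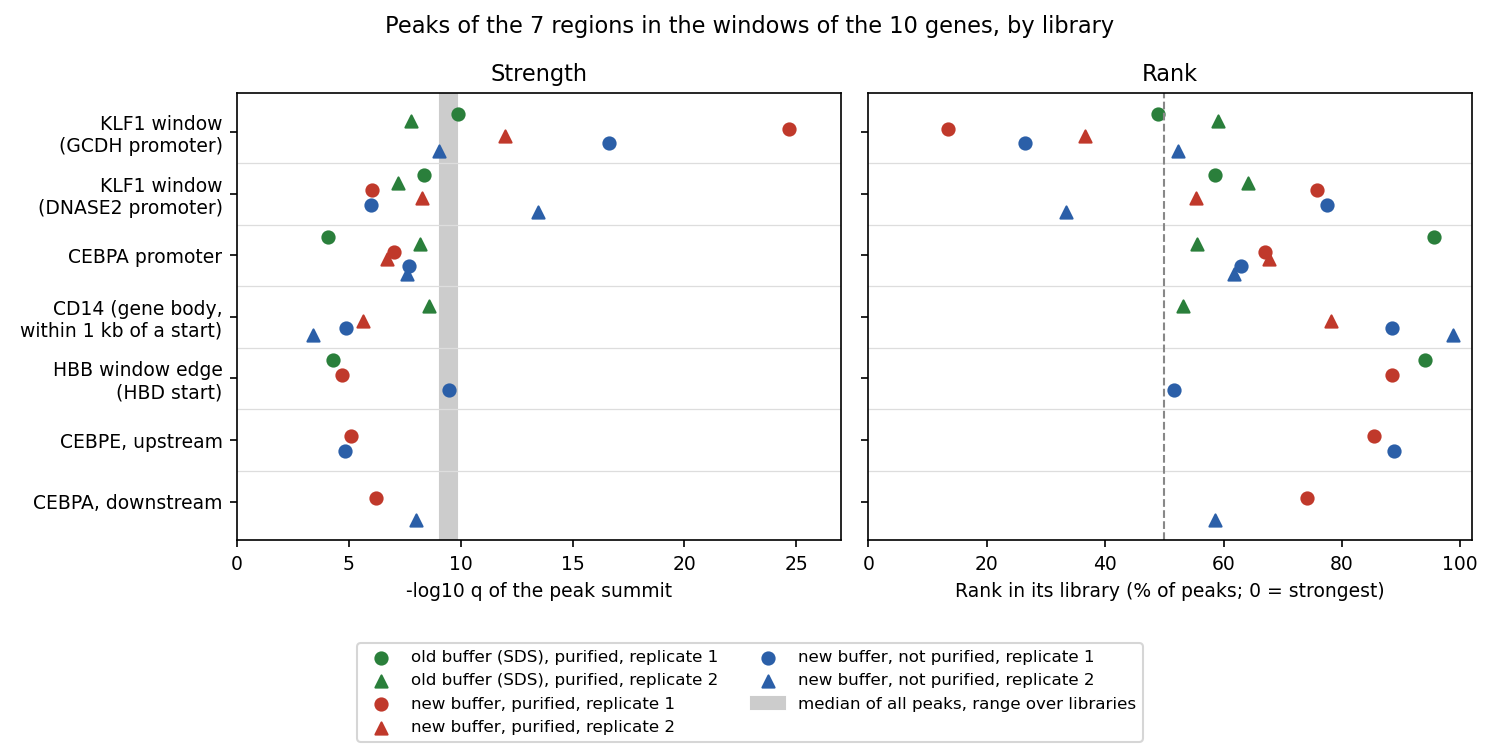
Strength of each of the 29 peaks of the 7 regions as −log10 q (left) and rank in its library in percent, 0 being strongest (right). Colours mark the 3 protocols, circles replicate 1 and triangles replicate 2, the grey band the range of the 6 library medians and the dashed line the middle rank. The peaks left of the middle rank are at the GCDH and DNASE2 promoters, and the CEBPA promoter peaks have ranks from 55.5% to 95.5%.

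Base composition separated the members in a way that the choice of genes did not use. Within 500 bp on each side of the 5′ end, the ratio of observed to expected CpG was 0.941 for CEBPA, 0.871 for HBA1, 0.868 for TAL1 and 0.726 for GATA2. The other 6 genes lay between 0.108 (MPO) and 0.258 (KLF1). Of coding genes with a ratio of at least 0.6, 79.7% had a promoter region in at least 1 library and 62.6% in all 6, against 32.2% and 20.0% below 0.6. Of the 4 CpG-rich members, 1 had a promoter region, CEBPA. Of the 6 CpG-poor members, 1 had one, CD14. TAL1, GATA2 and HBA1 were therefore among the minority of CpG-rich coding genes without any promoter region, HBA1 with the limit on duplicated sequence given above.

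Within 100 bp on each side of the strongest summit, the CEBPA promoter was 79.6% G or C, above the level that 10% of the regions called in all 6 libraries exceeded (75.1%, median 52.7%). The CpG ratio of this CEBPA window was 1.04. The CD14 region had a CpG ratio of 1.06, also above the level that 10% of regions exceeded (1.01, median 0.413), although the 5′ end of the gene, at 0.199, was CpG-poor. The HBD and CEBPA downstream regions were CpG-poor, at 0.124 and 0.134. The remaining regions were in between, CEBPE at 0.340, GCDH at 0.578 and DNASE2 at 0.741.

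Of the motifs searched on both strands in these windows, GATAA (GATA factors), GAGGAAGT (PU.1) and CCACACCC (KLF factors) matched in 0 of the 7 regions. They were present in 14.7%, 2.80% and 1.99% of windows of the same length at the 20064 regions called in all 6 libraries. The HBD region had 1 match to TTGCNNAA (7.81% of windows) and the CEBPE region 1 match to TGTGGT (21.2%), both in capitals in the sequences above. The E-box CANNTG, which TAL1 and many other factors bind and which is not marked there, had 3 matches at CEBPE, 2 at HBD, and 1 each at DNASE2 and CEBPA downstream, against 59.1% of windows with at least 1. A match is a run of letters and not a bound site, and no match says only that these letters are not in this window.

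Other genes of these lineages were read from fixed lists. A promoter region was called at 3 of 22 other erythroid genes (13.6%), 3 of 20 other myeloid genes (15%) and 2 of 8 T cell genes (25%), against 14 of 16 B cell genes (87.5%) and 60.6% of coding genes. In all 6 libraries the counts were 2, 2, 1 and 6, the last being 37.5% of the B cell list, below the 45.5% of all coding genes. Among other erythroid genes, the highest mean −log10 q was 24.7 at ZFPM1, a cofactor of GATA proteins, followed by 9.27 at GFI1B, a transcriptional repressor. Among other myeloid genes it was 12.9 at MNDA, a nuclear antigen of myeloid cells and some B cells, and 8.56 at GFI1, a repressor of the same family as GFI1B. CD8A had 10.5 among the T cell genes.

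The strongest promoter regions of the B cell list were as follows. CD74, the invariant chain of MHC class II, had a mean −log10 q of 32.2, MS4A1, which encodes CD20, 23.9, POU2AF1, a B cell coactivator, 17.9, and EBF1 17.5. Of the 6 B cell genes with a promoter region in all 6 libraries, 5 were stronger than CEBPA, and CR2, the complement receptor bound by Epstein-Barr virus, was weaker (5.15). All 16 B cell windows held a region, and per 100 kb the B cell windows had 6.91 regions, the member windows 4.44, other erythroid 3.29, other myeloid 2.58 and all coding genes 2.71. Of the 7 regions behind the density of the members, 3 were the neighbouring promoters of GCDH, DNASE2 and HBD. Regions were summed over genes, so a region in overlapping windows was counted for each gene. Among other erythroid genes, HBG2 and HBE1 had largely shared windows of 262418 and 247308 bp. Each held 13 of the 39 regions summed for that list, so its 3.29 rests largely on 1 stretch counted for both genes. These densities were not matched for window length. The median window was 13.0 kb for the members, 24.1 kb for the B cell list and 37.0 kb for all coding genes. Of the 14 B cell genes with a promoter region, 8 had it in fewer than 6 libraries, so a missing peak in a library was common also at genes of this lineage.

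By library, 1 or 2 of the 10 members had a promoter peak, in any of the protocols. The B cell list had 10 and 7 in the old buffer libraries, 12 and 8 in the purified new buffer libraries, and 9 and 8 in the unpurified ones, so its replicates differed by up to 4 genes. Over all coding genes the share was 51.8% to 55.2%, and the B cell list was above it in each replicate 1 and below it in each replicate 2. The members and the other erythroid and myeloid lists were thus below all coding genes in each of the 6 libraries.

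**Figure D3:**
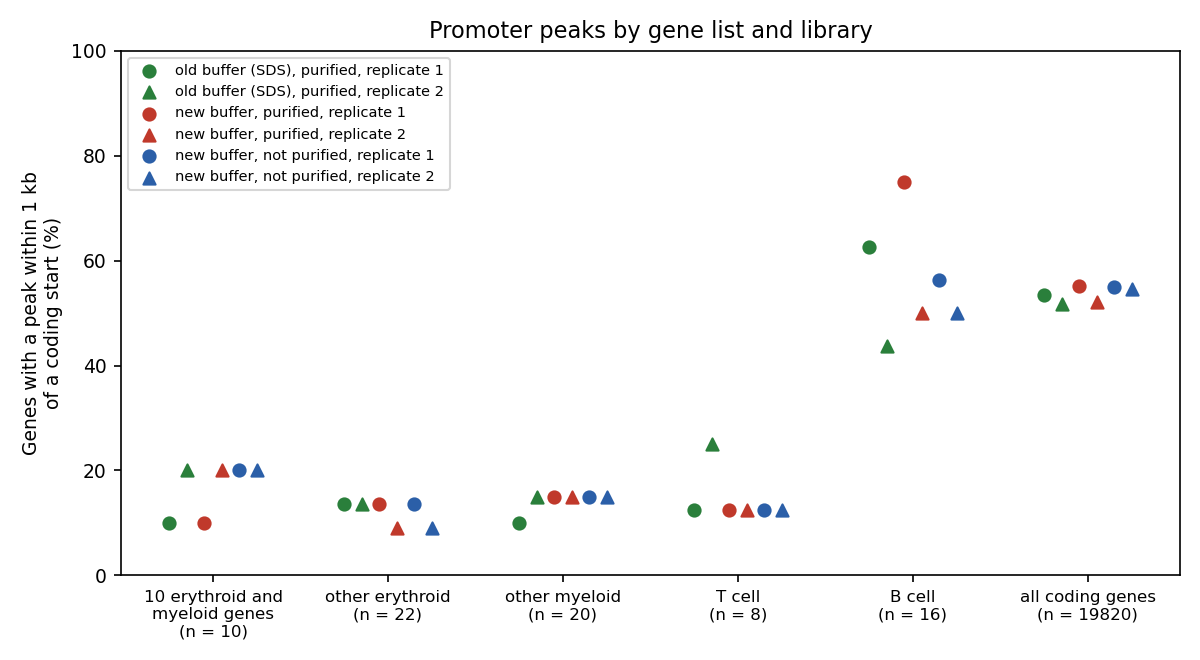
Percent of genes with a peak within 1 kb of a coding start, for the 10 members, 4 other lists and all coding genes, with 1 point for each library (colours mark protocols, circles and triangles replicates 1 and 2). The 10 members sit at 10% or 20%, the B cell list between 43.8% and 75%, and all coding genes between 51.8% and 55.2%.

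The protocols were compared at the 3 member regions called in all 6 libraries, to ask whether the way crosslinks were reversed changed their strength. The measure was log2 of the summit reads divided by relative depth, fitted with limma for all 20064 regions called in all 6 libraries. At the CEBPA promoter the new buffer with purification minus the old buffer was 0.19 (95% confidence interval −0.31 to 0.69), the unpurified libraries minus the old buffer 0.14 (−0.36 to 0.65), and unpurified minus purified new buffer −0.05 (−0.55 to 0.45). The limma adjusted p-values were 0.882, 0.984 and 0.990. At the DNASE2 promoter in the KLF1 window the same differences were −0.24 (−0.76 to 0.28), 0.00 (−0.52 to 0.52) and 0.24 (−0.28 to 0.76), with limma adjusted p of 0.859, 1.00 and 0.946. Each of these intervals includes 0, and also changes of 0.52 or more on the log2 scale in at least 1 direction. At the DNASE2 promoter both purified new buffer libraries (8.25 and 10.6 depth-scaled reads) lay below both old buffer libraries (10.9 and 11.2).

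The GCDH promoter differed most. The purified new buffer was 0.75 above the old buffer (0.19 to 1.32), a 1.69-fold level, with 2 of 2 libraries above both old buffer libraries, a limma unadjusted p of 0.0121 and an adjusted p of 0.735. The unpurified libraries were 0.36 above the old buffer (−0.21 to 0.93) and 0.40 below the purified new buffer (difference −0.40, −0.96 to 0.17), with limma adjusted p of 0.938 and 0.932. After adjustment the difference did not pass. It was 0.41 without purified new buffer replicate 1, 1.10 without replicate 2 of that protocol, and 0.45 when fold enrichment was used in place of summit reads. Over all regions limma called 0 of 20064 (0%) in each of the 3 comparisons, with 1321 (6.58%), 1169 (5.83%) and 1049 (5.23%) at an unadjusted p under 0.05. The median of all regions was 0.08, −0.03 and −0.12, so that relative to all regions the unpurified libraries lay 0.12 higher against the purified new buffer than printed here, and with libraries scaled to equal medians the CEBPA difference between them was 0.08.

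**Figure D4:**
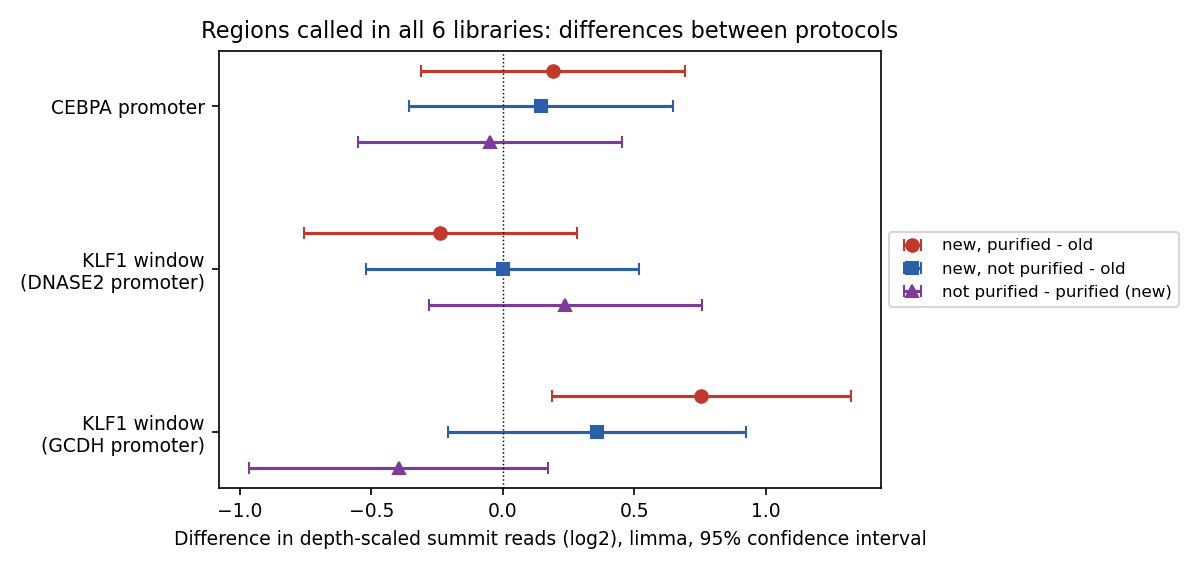
Differences between protocols in depth-scaled summit reads on the log2 scale at the 3 regions called in all 6 libraries. Points are limma estimates and bars 95% confidence intervals. All intervals include 0 except the GCDH promoter for the purified new buffer minus the old buffer, at 0.75 (0.19 to 1.32), which had an adjusted p of 0.735.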

How the data were processed

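The data were MACS2 narrow peak lists, 1 for each of 6 bulk libraries of fixed GM12878. Before deposit, the authors trimmed reads, aligned them with Bowtie2 (2.1.0) to hg19, filtered on mapping quality and proper pairing, and took out duplicates with Picard (1.79) and mitochondrial reads. Peaks were called by MACS2 with a q threshold of 0.01, in a version not given in the sources used here. According to the methods, reads of 1 condition were merged for calling, while the lists are per library. Each deposited peak carries a score (10 times the −log10 q, without decimals), a ratio (fold enrichment at the summit against local background), a −log10 p and a −log10 q. DESeq, which the submitters' processing notes also name, was not used here.

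Summit reads and local background were solved from the deposited fold enrichment and −log10 p, which all peaks allowed within 0.001. Relative depth was the lowest background of a library, and ranged up to 1.24 times the lowest library. It is not a read total, and total depth is unknown. Peaks were merged over libraries into 56447 regions (minimum overlap 1 bp), and genes and starts came from GENCODE version 44 on GRCh37. No peak lay past a chromosome end of that reference. limma (3.58.1, R 4.3.3) was fitted to log2 depth-scaled summit reads with protocol as the only term and Benjamini-Hochberg adjustment at 0.05. Scripts (Python 3.11.15) were tested on simulated data.

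The members and lists were chosen with earlier results of these data known. Named were all members and their regions, and of other lists up to 4 genes with the highest mean −log10 q of a promoter region called in all 6 libraries. Genes named beyond that, and the range of window lengths used for comparison, were chosen after their values were seen. Alternatives were a stricter −log10 q of 5, equal peak numbers, other windows and starts, median scaling, fold enrichment, a replicate block and leaving out each library.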

Additional observations from a re-analysis of the deposited data

How the results depend on the processing

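The count of members with a promoter region in at least 1 library was 2 under the stricter peak strength, equal peak numbers, other flanks and leaving out any library. It rose to 3 with promoters of 2000 bp on each side. The count with a promoter region in all libraries went from 1 to 0 under the −log10 q minimum of 5 and to 0 with 30136 peaks per library, because the CEBPA peak of old buffer replicate 1 (−log10 q of 4.06) then drops out. With no flank (0 kb), the regions went from 7 to 2, those called in all libraries from 3 to 1, and the genes with a distal region from 4 to 0. With a flank of 10 kb they were 9, 4 and 6. Leaving out each library gave 6 to 7 regions, 3 to 3 in all libraries and 3 to 4 genes with a distal region, the lower values without unpurified replicate 1.

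In limma, 0 regions were called in each comparison under all alternatives run. The replicate block gave 0 as well and left the log2 differences as they were (GCDH promoter, new buffer purified minus old, 0.75 with adjusted p of 0.675). Over the regions called in all libraries, samples with the same number did not deviate together in depth-scaled summit reads (r of −0.0041, −0.0026 and 0.015). These r values do not cover which peaks were called. Replicate 1 had more peaks than replicate 2 in the old buffer (37654 against 34826) and the purified new buffer (38023 against 30136). The same held without purification (36252 against 34438). Neither measure can decide whether samples with the same number shared a culture or batch, which is not stated. Of 87 log2 differences at the 3 regions under alternatives, 77 kept their direction and 10 reversed, with adjusted p of 0.56 to 1. At the CEBPA promoter unpurified minus purified new buffer was 0.083 with median scaling and 0.013 with fold enrichment, and at the DNASE2 promoter purified new buffer minus old was 0.080 with fold enrichment. Leaving out each library, the CEBPA differences were −0.067 to 0.45 (purified new minus old), −0.12 to 0.40 (unpurified minus old) and −0.13 to 0.035 (unpurified minus purified new). The DNASE2 differences were −0.28 to 0.28 (unpurified minus old) and −0.047 to 0.52 (unpurified minus purified new). The GCDH differences were 0.41 to 1.10 (purified new minus old), 0.04 to 0.68 (unpurified minus old) and −0.74 to −0.05 (unpurified minus purified new), the extremes coming from the replicates of the new buffer protocols. The cause was not tested. With a −log10 q of at least 5 the CEBPA promoter was not called in all libraries and could not be fitted. Summits of 8 or 9 reads were the weakest listed, so differences among sites near that level are not detectable here.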

Other observations

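Some further genes, chosen after their values were seen, are given as values. SPI1, which encodes PU.1, a factor of myeloid cells that B cells also use, had 0 regions in its window in any library. LMO2, a partner of TAL1, had no promoter region and 1 distal region, called in all 6 libraries. CEBPB, a C/EBP factor of activated myeloid cells, had a promoter region in 5 libraries, with −log10 q of 4.81 to 7.91. In the B cell list, PAX5 and CD79B had a promoter peak in 1 library, purified new buffer replicate 1, with −log10 q of 5.05 and 4.68, and FCER2 had one in old buffer replicate 1, with 4.70. A gene that identifies B cells can thus lack a promoter peak in 5 of 6 libraries at this depth.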
